A study of Mus musculus with 8 samples.

Results

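Hox genes encode homeodomain transcription factors and lie in the mouse genome in clusters named Hoxa, Hoxb, Hoxc and Hoxd. Members at matching places in different clusters form paralog groups, numbered from the end of the cluster that is active earliest and farthest forward in the embryo. Low-numbered groups pattern the hindbrain and neck, middle groups the thorax, and high-numbered groups the loin, sacrum, tail and distal limb, and rib-bearing mesoderm keeps such a positional code. The genes described here are the cluster genes outside paralog group 8, the group of Hoxc8, whose transgene the study used. Of 35 genes listed, 31 had a probe set that the array annotation assigned to that gene alone, among 18193 genes with such a probe set in the whole series. The 31 genes had 45 probe sets, and the brightest over all arrays stood for its gene. Hoxa6, Hoxc11, Hoxc12 and Hoxd4 had no probe set of their own and were not analysed here.

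The RNA came from primary rib chondrocytes of FVB mouse embryos at E18.5, released from dissected rib cages with collagenase and trypsin, and was hybridised to 8 Affymetrix arrays. Embryos of 4 litters were sorted by genotype within the litter, which gave 4 control arrays (wild type, coded TA) and 4 arrays labelled Hoxc8 transgenic (coded TR), 1 of each per litter. The labels do not expand these codes, and the promoter that drove the transgene, the number of embryos behind an array and the sex of the embryos are not given in the sources used here. Replicate n of both groups came from the same litter, so litter n below means both of its arrays.

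The median signal of an array was between 107 and 121, and the rank correlation between arrays ran from 0.924 to 0.943. The probe set for Hoxc8 itself gave 3519 ± 501 in control and 3885 ± 369 in transgenic arrays (SD, n = 4 each), and the groups overlapped. This difference of 0.15 on the log2 scale (SE 0.12) had an exact two-sided permutation p of 0.229, where the smallest p that the 70 assignments allow is 0.0286. The labels of the transgenic arrays therefore had no independent check from this probe set, and no source used here says whether it reads RNA of the transgene. All 16 chondrocyte marker genes with a probe set passed the signal filter, among them Col2a1, the main cartilage collagen, at 47268 ± 10893 in control and 40992 ± 2737 in transgenic arrays. Skeletal muscle markers were also present: 16 of 16 passed the filter, with summed signals of 37971 to 62163 in control and 35237 to 57058 in transgenic arrays. Of 14 fibrous tissue markers 13 passed, with summed signals of 194694 to 218353 in control and 177330 to 207514 in transgenic arrays. Of 8 endothelial markers 7 passed, of 9 blood markers 6, of 8 keratinocyte markers 2 and of 14 spinal cord and neural markers 1.

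Promoter sequence is shown for Hoxa5 and Hoxc4 because these genes, from different clusters, differed most clearly between litters (below). Each sequence is the 250 bases before the start of the gene in RefSeq on GRCm38.p6. The Hoxa5 window is chr6:52204588-52204837 on the minus strand and the Hoxc4 window is chr15:103034145-103034394 on the plus strand, both read 5′ to 3′ in the direction of the gene. Capitals mark the longest run of bases common to both.
Hoxa5: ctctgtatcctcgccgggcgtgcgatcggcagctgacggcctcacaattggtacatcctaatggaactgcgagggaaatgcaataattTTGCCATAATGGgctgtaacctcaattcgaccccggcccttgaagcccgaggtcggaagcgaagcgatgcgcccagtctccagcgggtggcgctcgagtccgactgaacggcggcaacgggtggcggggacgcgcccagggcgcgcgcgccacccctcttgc
Hoxc4: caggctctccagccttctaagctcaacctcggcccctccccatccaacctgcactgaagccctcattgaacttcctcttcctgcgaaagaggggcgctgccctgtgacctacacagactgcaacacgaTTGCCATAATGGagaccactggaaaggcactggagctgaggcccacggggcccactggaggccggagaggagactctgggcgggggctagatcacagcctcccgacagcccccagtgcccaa

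The run in capitals, 12 bases long, began 162 bases before the Hoxa5 start and 122 bases before the Hoxc4 start, in the same orientation. It was found by comparing these windows with each other, so its presence in both is by construction. Searched on both strands, it stood in 2 of 32851 windows of this length (0.00609%), those of Hoxa5 and Hoxc4. Of the 13 Hox genes tested below, 7 had a window in the RefSeq table, and the longest run shared by the other 20 pairs of these windows was 7 to 12 bases. Hoxa5 had none of the 3 motifs searched on both strands: TGATNNAT, a composite of Hox and Pbx binding letters present in 7.68% of all windows, AGGTCA, a half-site of retinoid receptors in 14.0%, and TATAAA, the TATA box in 12.4%. Hoxc4 and Hoxb4 held AGGTCA and Hoxa2 held TGATNNAT, while none of the 7 held TATAAA. No window of the 7 held more than 1 of these motifs, and a match is a description of the letters, not a site.

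In the rib chondrocyte preparations, the Hox genes that reached the signal filter lay in the anterior and middle part of the Hoxa, Hoxb and Hoxc clusters. None of the measured Hoxd genes outside group 8 reached it. A gene was tested when its mean signal over the 8 arrays reached 110, the median over all probe sets, and 13 of the 31 genes did (41.9%), against 60.3% of all genes. They were Hoxa2, Hoxa3, Hoxa4, Hoxa5, Hoxa7, Hoxa9, Hoxb2, Hoxb3, Hoxb4, Hoxb6, Hoxc4, Hoxc5 and Hoxc6, that is 6 of 9 genes of the Hoxa cluster, 4 of 9 of Hoxb, 3 of 6 of Hoxc and 0 of 7 of Hoxd. By paralog group, the tested genes numbered 4 of 7 in groups 1 to 3, 8 of 10 in groups 4 to 7, 1 of 4 in group 9 and 0 of 10 in groups 10 to 13. Signals of different probe sets share no scale, so a place above or below the filter does not say which gene had more RNA. The filter is a median over probe sets and not a detection call: 3 of 34 reference genes foreign to a rib cage also passed it (below).

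**Figure D1:**
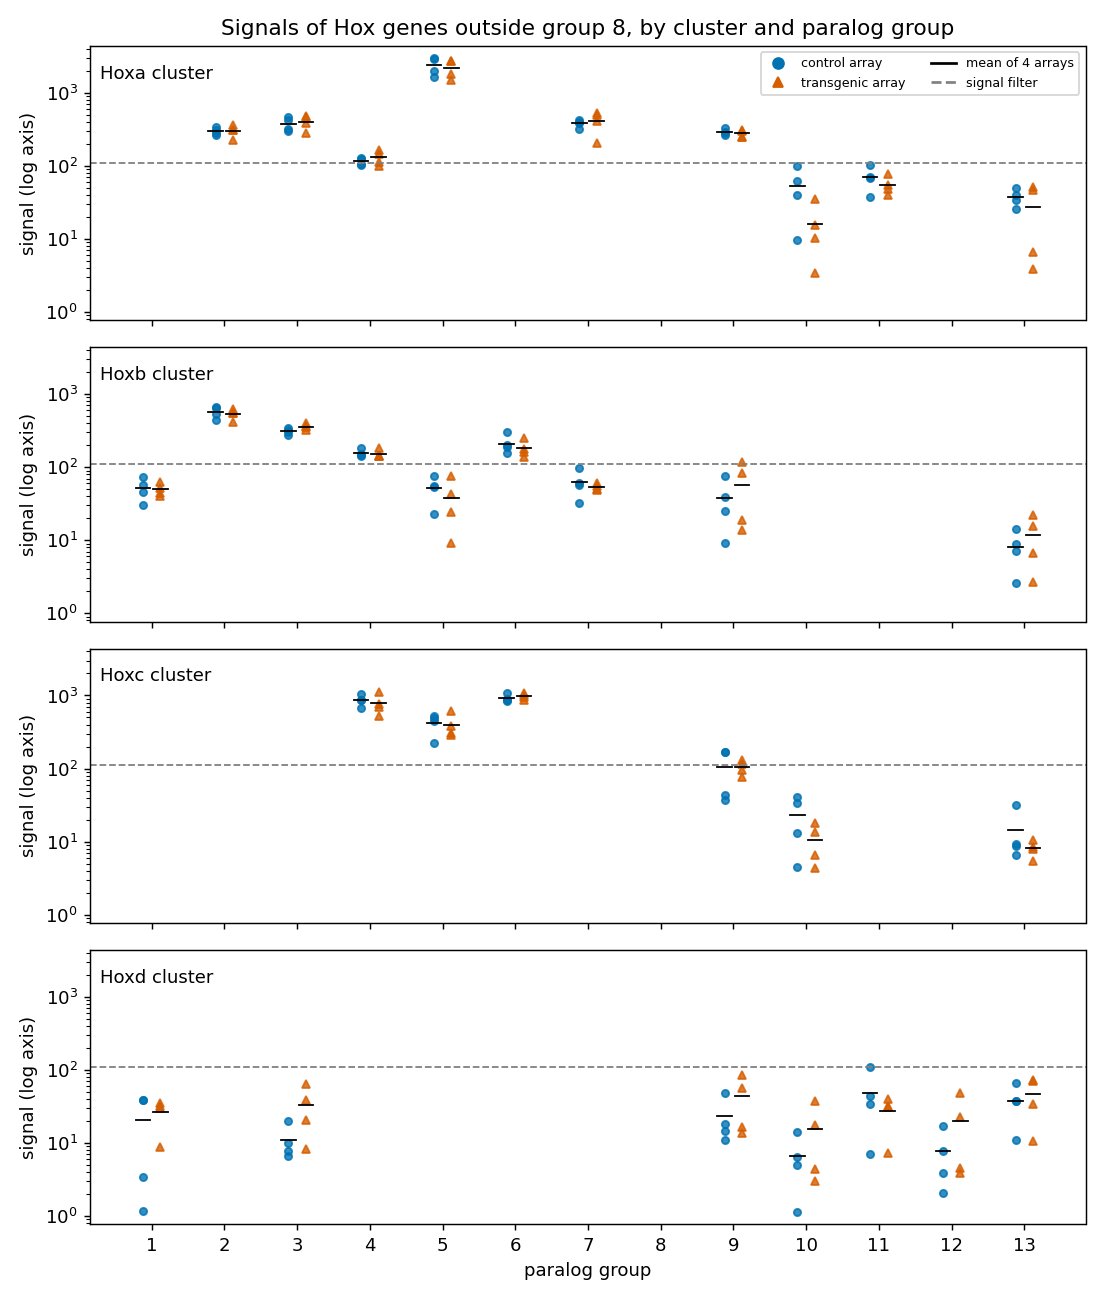
Signal of each Hox gene outside group 8 (log axis) against its paralog group, 1 panel per cluster; circles are the 4 control arrays, triangles the 4 transgenic arrays, short lines their means and the dashed line the filter at 110. Groups 10 to 13 and the 7 Hoxd genes shown lie under the line by their means, and control and transgenic points overlap for every gene.

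Most genes lay on the same side of the filter in every array. Of the 13 tested genes, 12 reached the filter in every array, and Hoxa4 did so in 5 of 8 arrays. Of the 18 untested genes, 16 stayed under it in every array, Hoxc9 rose above it in 4 arrays and Hoxb9 in 1. Just inside the filter lay Hoxa4 with a mean of 124, and just outside it Hoxc9 with 103. A reference list held 34 genes of retina, sperm, pituitary and other tissues that a rib cage does not hold. Their median signal was 29.3, and 3 of them passed the same filter, Oxt at 458, Hcrt at 143 and Gh at 116. Hoxa5, Hoxc4, Hoxc6 and Hoxb2 had means above that of Oxt, the highest reference value. Of the 13 tested Hox genes, only Hoxa4 had a mean under that of Hcrt. Means below the reference median were those of 7 of the 31 Hox genes.

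Group 1 genes, which pattern the hindbrain, were under the filter, with means of 50.8 for Hoxb1 and 23.4 for Hoxd1. In group 2, which patterns the hindbrain and the neural crest of the second branchial arch, Hoxa2 and Hoxb2 passed. Hoxb2 read 528, 653, 437 and 671 in control arrays 1 to 4 and 631, 549, 551 and 413 in transgenic arrays 1 to 4. The transgenic array was the higher in litters 1 and 3 and the lower in litters 2 and 4. Hoxa2 lay at 300 ± 34.6 in control and 304 ± 57.3 in transgenic arrays. In group 3, Hoxa3, which is needed for the thymus, the parathyroid and throat cartilages, lay at 377 ± 83.8 and 404 ± 90.8 in the same order. Hoxb3, which acts in the hindbrain and neck region, read 327, 275, 341 and 302 in control and 350, 322, 408 and 361 in transgenic arrays. It was higher in the transgenic array of each litter, although the groups overlapped.

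Groups 4 to 7, active from the neck through the thorax, held 3 of the 4 genes above the highest reference value, Hoxa5, Hoxc4 and Hoxc6. Hoxa5, whose loss in mice alters the cervical and upper thoracic skeleton and lung development, read 2951, 2960, 1996 and 1622 in control and 2696, 2752, 1800 and 1511 in transgenic arrays. Litters 1 and 2 were high and litters 3 and 4 low in both genotypes. Hoxc4, which acts in the cervical and upper thoracic region, read 870, 1058, 871 and 666 in control and 773, 1116, 690 and 529 in transgenic arrays. Litter 2 was highest and litter 4 lowest in both genotypes. Hoxc6, a gene with its anterior limit at the start of the thorax, read 1066, 845, 885 and 860 in control and 1089, 1013, 947 and 879 in transgenic arrays, with the transgenic array higher in each litter. Hoxc5, the neighbour of Hoxc4 and Hoxc6, read 486, 451, 221 and 521 in control and 387, 307, 285 and 617 in transgenic arrays, lowest in litter 3 and highest in litter 4 in both genotypes.

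Other genes of these groups gave lower signals on their probe sets. Hoxa4 read 103, 128, 126 and 105 in control and 101, 166, 147 and 115 in transgenic arrays. Hoxb6, whose forced expression in mice is known to alter rib formation, read 156, 301, 187 and 201 in control and 160, 177, 138 and 254 in transgenic arrays. Control array 2 was its highest and transgenic array 3 its lowest. Hoxa7, which acts in the thorax, read 429, 320, 393 and 382 in control and 491, 413, 524 and 208 in transgenic arrays, with transgenic array 4 far below the rest. Hoxb4, also studied in blood stem cells, lay at 156 ± 18.3 in control and 153 ± 21.0 in transgenic arrays. Hoxb5 and Hoxb7 were under the filter in every array, with means of 45.1 and 58.1.

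In group 9, whose members together limit how many ribs join the sternum, Hoxa9 passed with 294 ± 28.1 in control and 280 ± 33.6 in transgenic arrays. Hoxc9, which lies beside Hoxc8 in the cluster, read 166, 43.4, 37.2 and 167 in control and 115, 94.4, 75.4 and 129 in transgenic arrays. Its values above the filter came from litters 1 and 4 in both genotypes. Hoxb9 and Hoxd9 had means of 47.6 and 33.1. In groups 10 to 13 the means of the 10 genes ran from 10.1 for Hoxb13 to 62.5 for Hoxa11. Group 10 is known to suppress rib formation in the loin, and its genes Hoxa10, Hoxc10 and Hoxd10 had means of 34.6, 16.7 and 11.1.

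Of the 7 measured Hoxd genes outside group 8, none reached the filter, whereas Hoxd8, of group 8, passed it with a mean of 173.9. The highest means among the 7 were those of Hoxd13 and Hoxd11, which act in the distal limb and tail and in the sacrum and forearm. Hoxd13 read 38.0, 65.3, 37.1 and 11.1 in control and 33.8, 10.7, 72.9 and 71.0 in transgenic arrays. Hoxd11 read 7.15, 108, 44.5 and 34.4 in control and 40.1, 31.2, 32.5 and 7.23 in transgenic arrays. The arrays of each genotype scattered widely, and the genotypes overlapped for both genes.

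The first comparison asked whether Hox genes outside group 8 differ between arrays labelled Hoxc8 transgenic and controls. None of the 13 tested genes was called: limma's moderated test with Benjamini-Hochberg adjustment over 22495 probe sets gave adjusted p of at least 0.9999 for each, and with litter as a block at least 0.9998. The count is to be read against the background, since 0.0% of all probe sets were called in the fit without litter and 0.0% with litter as a block. At an unadjusted p under 0.05, 0 of the 13 genes passed in either fit, against 1.08% of all probe sets without the block and 3.33% with it. On the scale of log2(signal + 22.2), used for every difference below, 6 genes were higher and 7 lower in transgenic arrays, with a median of -0.02. Over all probe sets tested the median was -0.00, and 48.8% were higher. The groups overlapped for all 13 genes, while 1.02% of all probe sets had groups that did not overlap.

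**Figure D2:**
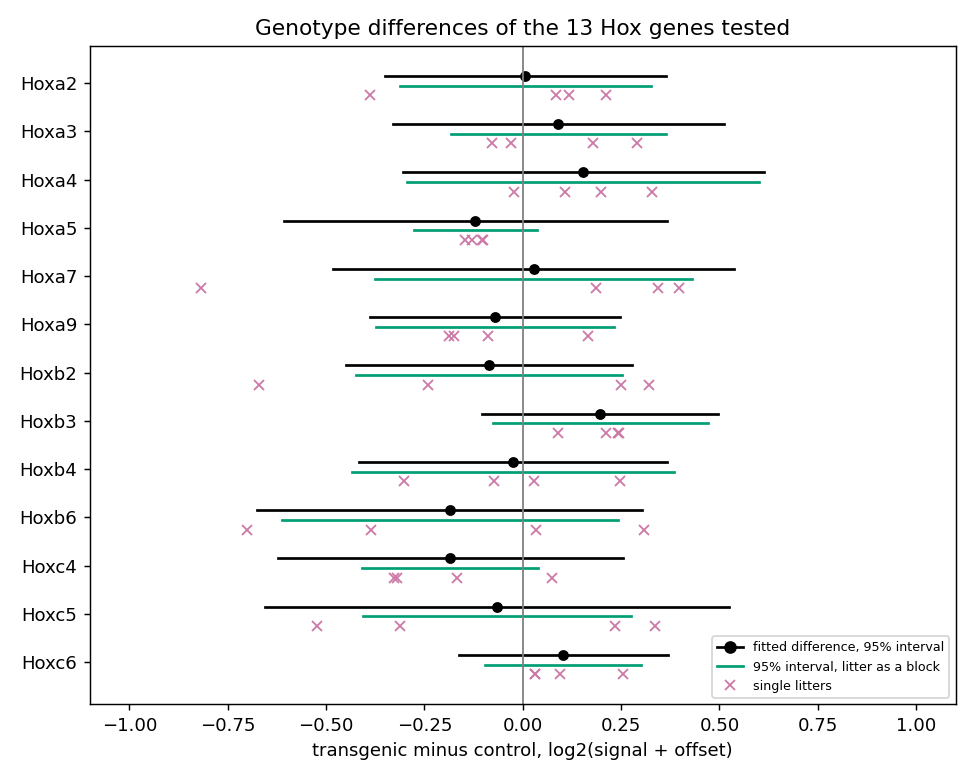
Transgenic minus control on the log2(signal + offset) scale for the 13 Hox genes tested. Black points and lines are the fitted difference and its 95% interval over 4 arrays per group, green lines the 95% interval with litter as a block, and crosses the 4 litters; every interval includes 0, and the green interval of Hoxa5 is much narrower than its black one.

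The largest positive difference was that of Hoxb3, 0.20 (SE 0.14), and the largest negative ones were those of Hoxb6, -0.19 (SE 0.23), and Hoxc4, -0.18 (SE 0.20). Within litters Hoxc4 was lower in the transgenic array in 3 of 4, and the block narrowed its interval to -0.41 to 0.04. Hoxc6 differed by 0.10 (SE 0.12), Hoxa4 by 0.15 (SE 0.21) and Hoxa5 by -0.12 (SE 0.23). The differences of Hoxa5 were close to each other in litters 1 to 4, at -0.13, -0.10, -0.15 and -0.10. With the block, its SE fell to 0.07 and its 95% interval was -0.28 to 0.04. On their brightest probe sets, Hoxa5 was thus lower in 4 of 4 litters, and Hoxb3 and Hoxc6 higher in 4 of 4. These were 3 of 13 genes with 1 sign in every litter, a pattern that 10.6% of all probe sets showed. Dimmer probe sets did not repeat it. That of Hoxb3, with a mean of 109.5 just under the filter, differed by -0.05 (SE 0.27) and was lower in litters 1 to 3. That of Hoxa5 was higher in litter 2, at 1438 in the transgenic and 1065 in the control array. The second probe set of Hoxc6 was lower in litter 4, at 774 and 827 in that order.

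The intervals set what these arrays could show. The 95% intervals of the 13 genes reached from 0.626-fold to 1.53-fold, and those of 8 genes lay within 1.5-fold in either direction. A p that misses the threshold does not show equal levels, and in RNA from a mixture of cells, fewer cells of a type and less RNA per cell cannot be told apart. For Hoxa7, -0.82 in litter 4 stood against 0.19 to 0.40 in the other litters. Hoxb2 ran from -0.67 in litter 4 to 0.32 in litter 3.

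The 18 genes under the filter were examined in a fit of all 45037 probe sets without the filter. In it, 9 were higher and 9 lower and 0 were called, against 0.0% of all probe sets. At an unadjusted p under 0.05, 1 of the 18 passed, against 2.79% of all probe sets. That gene was Hoxa10, with signals of 9.68, 101, 62.8 and 39.6 in control and 3.38, 15.5, 34.9 and 10.1 in transgenic arrays. It was lower in the transgenic array of each litter, with a difference of -0.88 (SE 0.41, adjusted p = 0.9999 by limma, and 0.9994 with litter as a block). The dimmer probe set of Hoxa10 gave 0.20 (SE 0.32), of the other sign. Hoxd3 had the largest positive difference, 0.64 (SE 0.33), and was higher in each litter, with signals of 6.55 to 20.01 in control and 8.35 to 64.6 in transgenic arrays.

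The litters themselves could be compared, since each gave a pair of arrays. Hoxa5, Hoxc4 and Hoxc5 differed between litters, by an F-test on the litter terms in limma that kept genotype as a term, with Benjamini-Hochberg adjustment over all probe sets. These 3 of 13 genes (23.1%) stand beside 9.07% of all probe sets tested, 2041 of 22495. Bright probe sets were also fitted on their own, with the variance trend and the adjustment redone. In that fit of probe sets with a mean of at least 494, 2305 of 11225 were called, and 2 of 4 Hox genes. The share of bright probe sets called in the main fit is not given here, so 9.07% may be a low yardstick for bright genes. Mean signals of Hoxa5 in litters 1 to 4 were 2824, 2856, 1898 and 1567, a 1.81-fold range on the log2(signal + 22.2) scale (adjusted p = 0.000838). Those of Hoxc4 were 822, 1087, 781 and 597, a 1.80-fold range on that scale (adjusted p = 0.0193). Those of Hoxc5 were 437, 379, 253 and 569, a 2.16-fold range on that scale (adjusted p = 0.0352). The orders differed: litter 4 was lowest for Hoxa5 and Hoxc4 and highest for Hoxc5. The other 10 genes had ranges of 1.15-fold to 1.58-fold on that scale and adjusted p of 0.0746, for Hoxa3, to 0.885.

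**Figure D3:**
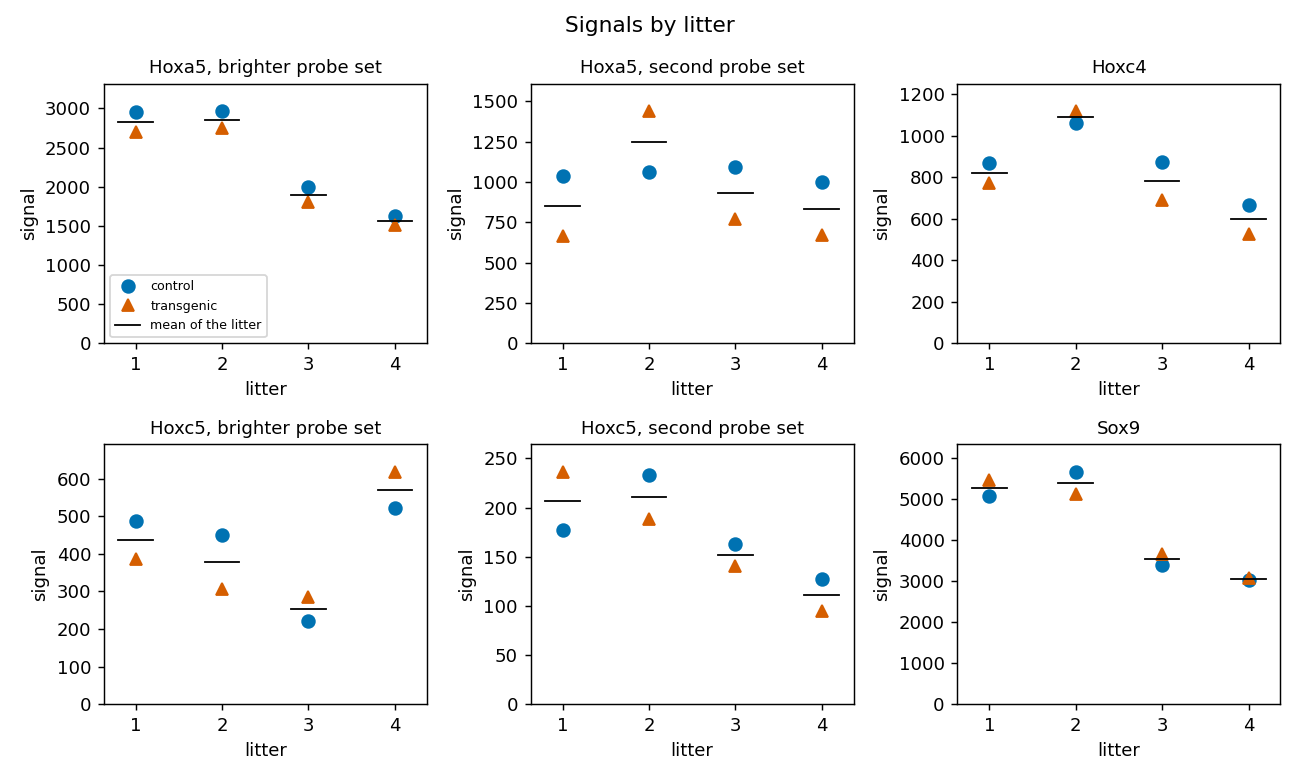
Signal by litter (linear axis from 0) for Hoxa5 and Hoxc5 on their brighter and dimmer probe sets, Hoxc4, and the cartilage regulator Sox9; circles are control arrays, triangles transgenic arrays, and short lines the mean of the pair. On its brighter probe set Hoxa5 is high in litters 1 and 2 in both genotypes, which its dimmer probe set does not show, and litter 4 is highest on the brighter and lowest on the dimmer probe set of Hoxc5.

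These litter differences depended on the probe set. The dimmer probe set of Hoxa5 had litter means of 852, 1251, 934 and 836 (adjusted p = 0.205 by limma), with transgenic array 2 at 1438 and the other transgenic arrays at 664 to 772. The dimmer probe set of Hoxc5 had litter means of 207, 211, 152 and 111 (adjusted p = 0.152), so that litter 4 was its lowest. Hoxc4 had 1 probe set only. Among the 5 tested genes with another probe set above the filter, 6 such probe sets were tested. Of these, 0 were called between litters, beside 9.07% of all probe sets tested, and 6 are too few to set against that share. In genotype, 5 of these 6 had the sign of the brightest probe set, and the exception was the dimmest probe set of Hoxc6, at -0.55 (SE 0.42) against 0.10.

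The litter differences also depended on how the spread was modelled and on single arrays. With a prior variance that does not follow signal, limma called 0 of 22495 probe sets, with 4914 at an unadjusted p under 0.05, and Hoxa5 had an adjusted p of 0.0986. Hoxa5 was called in 22 of 23 fits run, Hoxc4 in 17 of 23 and Hoxc5 in 12 of 22. Hoxc4 was not called without control array 2 (adjusted p = 0.0551), transgenic array 2 (0.111) or transgenic array 4 (0.0620), nor without litter 2 (0.155) or litter 4 (0.110). Hoxc5 was not called without control array 2 (0.0588) or 3 (0.202), transgenic array 2 (0.0559), 3 (0.0549) or 4 (0.108), nor without litter 3 (0.225) or 4 (0.135). Without control array 4, Hoxa7 was called as well (0.0202).

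Markers of several cell types moved between the same litters. Sox9, the transcription factor that directs cartilage formation, had litter means of 5270, 5392, 3527 and 3058 (adjusted p = 0.000988 by limma). It was high in litters 1 and 2 and low in litters 3 and 4, as Hoxa5 was on its brighter probe set only. Of the 16 chondrocyte markers, 4 differed between litters, and the summed signal of the 16 in litters 1 to 4 was 400702, 446838, 375236 and 369106. The 4 were Sox9, Acan, Col9a2 and Col11a2, each highest in litter 2 and lowest in litter 4. Other markers ran differently. Sox6 had litter means of 2028, 1729, 2144 and 2165, and Hapln1 was highest in litter 4 at 26744, neither of them called. Of the 16 skeletal muscle markers, 7 differed, with sums of 55310, 36604, 40798 and 59610, lowest in litter 2 and highest in litter 4. Of 13 tested markers of fibrous tissue 4 differed, and of 6 tested blood markers 3 did. Over all probe sets tested, the share called between litters was 9.07%, and it was higher in the separate fit of bright probe sets given above. The part of these cell types in the litter differences of Hoxa5, Hoxc4 and Hoxc5 was not tested, and litter and the handling of each litter cannot be told apart.

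Genes that act with or on the Hox clusters gave 0 calls between genotypes in each list, with and without the litter block. Of 9 tested cofactors, the Pbx, Meis and Pknox homeodomain proteins that bind DNA with Hox proteins and the related Tgif1 and Tgif2, 5 were higher and 4 lower with a median of 0.00. Meis3, whose mean was close to the filter, differed by 0.48 (SE 0.34). Of 23 tested Polycomb and Trithorax genes, which keep Hox genes silent or active, 8 were higher and 15 lower with a median of -0.04. Cbx2, a reader of the silencing mark, differed by -0.30 (SE 0.20), and Ezh2, the enzyme that writes it, by 0.13 (SE 0.10).

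Of 6 tested regulators of axial position upstream of Hox genes, 2 were higher and 4 lower, with a median of -0.06. The retinoic acid enzymes among them were Cyp26b1 and Cyp26a1, which degrade it, and Aldh1a2, which makes it. They differed by -0.26 (SE 0.20), -0.11 (SE 0.25) and -0.19 (SE 0.20) in that order. Genes that flank the clusters were 6 higher and 7 lower of 13 tested, with a median of -0.02. Of 2 tested noncoding genes within the clusters, Hoxb5os differed by -0.33 (SE 0.39) and Hoxd3os1 by 0.06 (SE 0.22).

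Between litters, 3 of the 23 Polycomb and Trithorax genes and 2 of the 6 axial regulators were called, beside 9.07% of all probe sets tested. Of the 9 cofactors, 13 flanking genes and 2 noncoding genes tested, 0 were called. Kdm6b, a demethylase that removes the silencing mark, had litter means of 2949, 4237, 2872 and 1294. Jarid2, a partner of the Polycomb complex, had 926, 1408, 750 and 1049, and Kmt2d, a Trithorax-type methylase, had 1026, 880, 825 and 515. Egr2, an activator of group 2 genes in the hindbrain, had 531, 979, 771 and 280. Zbtb16, a regulator of limb and axial pattern, had 910, 1329, 766 and 773.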

How the data were processed

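The authors deposited 1 signal intensity per probe set and array; MAS5 is named in the submitters' processing notes, with its version not given in the sources used here. The columns had a trimmed mean of 500, leaving out 2% at each end, and levels set by such scaling are relative to the array. The table held 45101 probe sets: 34945 with 1 symbol, 932 with several, 9160 with none and 64 controls, which were left out. The intensities were used as log2(signal + 22.2), the offset being their 20th percentile. Probe sets with a mean of at least 110 were tested with limma 3.58.1 in R 4.3.3, with a variance trend and Benjamini-Hochberg adjustment at 0.05, over 4 control and 4 transgenic arrays. The script was tested on simulated data. Array number limits the precision.

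The main fit had no litter term, and the replicate block was the alternative. The labels tie replicate numbers to litters. Deviations of the arrays of litters 1 to 4 from their group means correlated within the litter at 0.0253, 0.435, 0.376 and 0.380. The highest correlation of each control array with a transgenic array of another litter was 0.0626, 0.0136, 0.0295 and 0.00427. For litter 1 this was above the value within the litter, so these correlations do not show its pairing. Other alternatives changed the offset, filter, scaling, variance model, array weights, probe set choice and the arrays left out. Genes, lists and tests were chosen with earlier results of these data known. Values in every array are given for the 6 tested genes of smallest genotype p, those differing between litters and, per cluster, the 2 brightest. Hoxc9 and Hoxa10 were added after their values were seen, as were Hoxd3 and the non-Hox genes named.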

Additional observations from a re-analysis of the deposited data

Results flagged for a closer look

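Among 64 groups of 4 arrays (31 Hox genes outside group 8 and Hoxc8, in each genotype), 2 held an array whose gap to its nearest neighbour was large against the range of its group. Chance alone flags about 1 in 20 such groups, here 3.2. Hoxb4 in transgenic array 1 had a signal of 184.9, and the next transgenic array had 144.2. Hoxc13 in control array 3 had a signal of 32.1, and the next control array had 9.36, with all of its values far below the signal filter.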

How the results depend on the processing

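No setting called a genotype difference of any Hox gene outside group 8; the tested genes numbered 4 to 31 depending on the filter. The replicate block left this count at 0 and the median at -0.02, and changed no call. Litter calls over all probe sets, 2041 at first, were 995 with no filter, 0 with eBayes without trend, 1278 of 10979 genes with the mean of probe sets, and 548 to 3064 with arrays or litters left out. Litter calls among the Hox genes, 3 at first, were 0 with eBayes without trend and 1 to 4 with arrays or litters left out; Hoxc5 was lost with no filter (adjusted p = 0.0921) and with the mean of probe sets (0.152). The median genotype difference of the tested genes, -0.02, ran from -0.073 to 0.067 with arrays or litters left out and was 0.037 with array weights. Array weights turned the signs of Hoxa2 (-0.0033), Hoxb2 (0.041) and Hoxb4 (0.037), and the mean of probe sets that of Hoxc6 (-0.12); with arrays or litters left out, Hoxa2 ran from -0.086 to 0.14, Hoxa3 from -0.0075 to 0.24, Hoxa5 from -0.29 to 0.041, Hoxa7 from -0.11 to 0.31, Hoxb2 from -0.22 to 0.11, Hoxb4 from -0.12 to 0.067 and Hoxc5 from -0.33 to 0.086. These were 33 of 290 values, in 8 genes, and the cause was not tested. Hoxc8 stayed between 0.05 and 0.23. A stricter filter, at a mean of 494, left 4 Hox genes and gave no value for the others; signals near the filter lie among those of genes foreign to cartilage, which limits what the dim members can show.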
